A study of Homo sapiens with 16 samples.

Results

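Chromatin inheritance is the copying of DNA methylation, nucleosomes and histone marks onto new DNA, and 10 of its genes were followed in IMR32 cells depleted of TPX2. They are UHRF1, DNMT1 and HELLS of maintenance methylation, CHAF1A, CHAF1B, ASF1B and ATAD2 of chromatin assembly, and EZH2, SUZ12 and EED of Polycomb repressive complex PRC2. The genes were given by name and found by matching the Ensembl identifier of each row to its symbol, which gave 10 of the 58787 gene rows. All 10 passed the filter on low counts and are among the 14193 genes tested. IMR32 is an established human neuroblastoma line with amplified MYCN, and TPX2 encodes a spindle protein that also activates the kinase AURKA. The cells were treated for 48 h, per the names of the table's columns, with a non-targeting small interfering RNA (siNTC) or with 1 of 3 siRNAs against TPX2 (si45, si46 and si47), 4 libraries each. The parental line was the same throughout, so every group carried the amplified MYCN, and all 3 comparisons with control used the same 4 siNTC libraries. The comparison asks how the RNA of these genes stands when TPX2 is reduced.

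When a fork passes, UHRF1 binds CpG sites methylated on the old strand only and brings in DNMT1, which methylates the new strand. HELLS, a remodelling ATPase, opens nucleosomal DNA to this step. Behind the fork, ASF1 proteins hand new histones H3 and H4 to CAF-1, whose subunits CHAF1A and CHAF1B deposit them with RBBP4, and ATAD2 is a bromodomain ATPase that binds acetylated histones on newly made chromatin. In PRC2, EZH2 methylates lysine 27 of histone H3, SUZ12 holds the complex together and EED reads the mark already present. Many genes of DNA replication are transcribed as cells enter S phase through E2F factors, and genes of mitosis often carry a cell cycle homology region (CHR). EZH2 is a known dependency of neuroblastoma lines with amplified MYCN.

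The promoters were read first, because the S phase genes moved alongside these genes in the libraries. RefSeq sequences on GRCh38.p14, from 250 bases before to 50 after an annotated start, were given for 9 of the 10 genes. Both strands were searched for the E2F letters TTTCCCGC, TTTGGCGC, TTTCGCGC and TTTGCCGC and for the CHR letters TTTGAA. In these promoters no E2F match overlapped a CHR match. Some genes have several annotated starts, so shares are given per gene, with a match at any start, and per promoter. At least 1 E2F spelling stood in 5 of the 9 genes (UHRF1, DNMT1, HELLS, EZH2 and SUZ12), against 3.99% of the 27305 genes in the table. Per promoter it was 6 of 12, against 3.31% of 35116. These backgrounds include genes outside those tested for RNA and were not matched for base composition. The CHR letters stood in 2 of the 9 genes (SUZ12 and ASF1B), against 18.2% of all genes, and in 2 of the 12 promoters, against 15.2% of all promoters. The windows around the matches follow, 5′ to 3′ on the gene's strand with the matched letters in capitals, 1 for each gene except HELLS, which had a pair of sites.
UHRF1 (chr19:4909476-4909505, plus strand): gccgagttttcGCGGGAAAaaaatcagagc
DNMT1 (chr19:10194937-10194966, minus strand): catcggtttccGCGCGAAAagccggggcgc
HELLS upstream site (chr10:94545701-94545730, plus strand): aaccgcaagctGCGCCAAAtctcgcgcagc
HELLS site at the start (chr10:94545769-94545798, plus strand): gatgacaggatTTTCCCGCgaaggagaagc
EZH2 (chr7:148884272-148884301, minus strand): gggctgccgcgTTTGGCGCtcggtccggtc
SUZ12 (chr17:31936807-31936836, plus strand): cgacccctaatTTTCCCGCgaattcagttc
ASF1B, CHR letters (chr19:14136599-14136628, minus strand): ggaggccggctaTTTGAAggcggcgcgcgg
Counted from the start, with negative offsets upstream, the E2F letters began at -14 in UHRF1, -2 in DNMT1, -76 and -8 in HELLS, 1 in EZH2 and -189 in SUZ12. UHRF1 held a further E2F spelling beside another annotated start, and the CHR letters of SUZ12 began at -173. None of these letters stood in the windows of EED, CHAF1A and CHAF1B. A match is a run of letters and was not tested as a binding site.

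Letters and RNA were then set side by side, with no test. Of the 5 genes with E2F letters, DNMT1, HELLS, EZH2 and SUZ12 fell in the mean of the 3 siRNAs and UHRF1 did not pass the test. CHAF1A and CHAF1B, with neither set of letters, fell as well. EED had neither and did not pass the test.

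Libraries came from a 3' end kit, in which the reads of a transcript do not grow with its length. Levels in CPM (counts scaled by the TMM library size) are set side by side between genes as a rough guide only. PCR duplicates may have been kept, and reads of overlapping or copied genes may not be told apart. Total counts ran from 5318159 to 7864343 per library, with a median of 5966582. TPX2 measured 327 ± 27.1 CPM in siNTC (mean ± SD, n = 4, as for all means here) and 91.6, 81.7 and 71.5 with si45, si46 and si47. All 10 adrenergic neuroblast markers passed the low-count filter, with a summed level of 5658 to 6187 CPM in siNTC, 5831 to 6769 with si45, 6197 to 7210 with si46 and 6333 to 7429 with si47. In edgeR's test of the mean of the 3 siRNAs, HAND2 (log2 fold change 0.23, adjusted p = 0.0193) and CHGA (0.67, 0.0431) rose and DBH fell by 0.56 (adjusted p = 1.27e-05). Of the markers of other cells, mesenchymal and stromal genes summed to 267 to 334 CPM with 5 of 11 tested, Schwann cell genes to 5.03 to 11.3 with 1 of 5 tested and 1 at 0 in all 16 libraries, and blood, endothelial and epithelial genes to 0 to 2.57 with 0 of 7 tested and 1 at 0 in all 16. The labels do not say whether the replicates were separate cultures, so p-values measure the spread between these libraries, which may be technical.

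In the mean of the 3 siRNAs, 7 of the 10 genes fell by edgeR's quasi-likelihood test with Benjamini-Hochberg adjustment over all genes, where 3.53% of all genes tested were lower and 3.61% higher. These were ATAD2, HELLS, CHAF1B, CHAF1A, EZH2, SUZ12 and DNMT1, with log2 fold changes from -0.57 to -0.26. UHRF1, ASF1B and EED did not pass. The median over the 10 was -0.34, against 0.00 over all genes tested. The 10 genes were chosen with earlier results of these data known. The shares of all genes are therefore a description and no independent support. HELLS, EZH2 and CHAF1A were lower in all 12 knockdown libraries than in any siNTC library, which 1.03% of all genes tested were. In bulk RNA, fewer cells that express a gene and less RNA per cell cannot be told apart. Without siNTC replicate 1 the count was 4, as DNMT1 (adjusted p = 0.0703), SUZ12 (0.0507) and CHAF1B (0.0523) no longer passed.

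**Figure D1:**
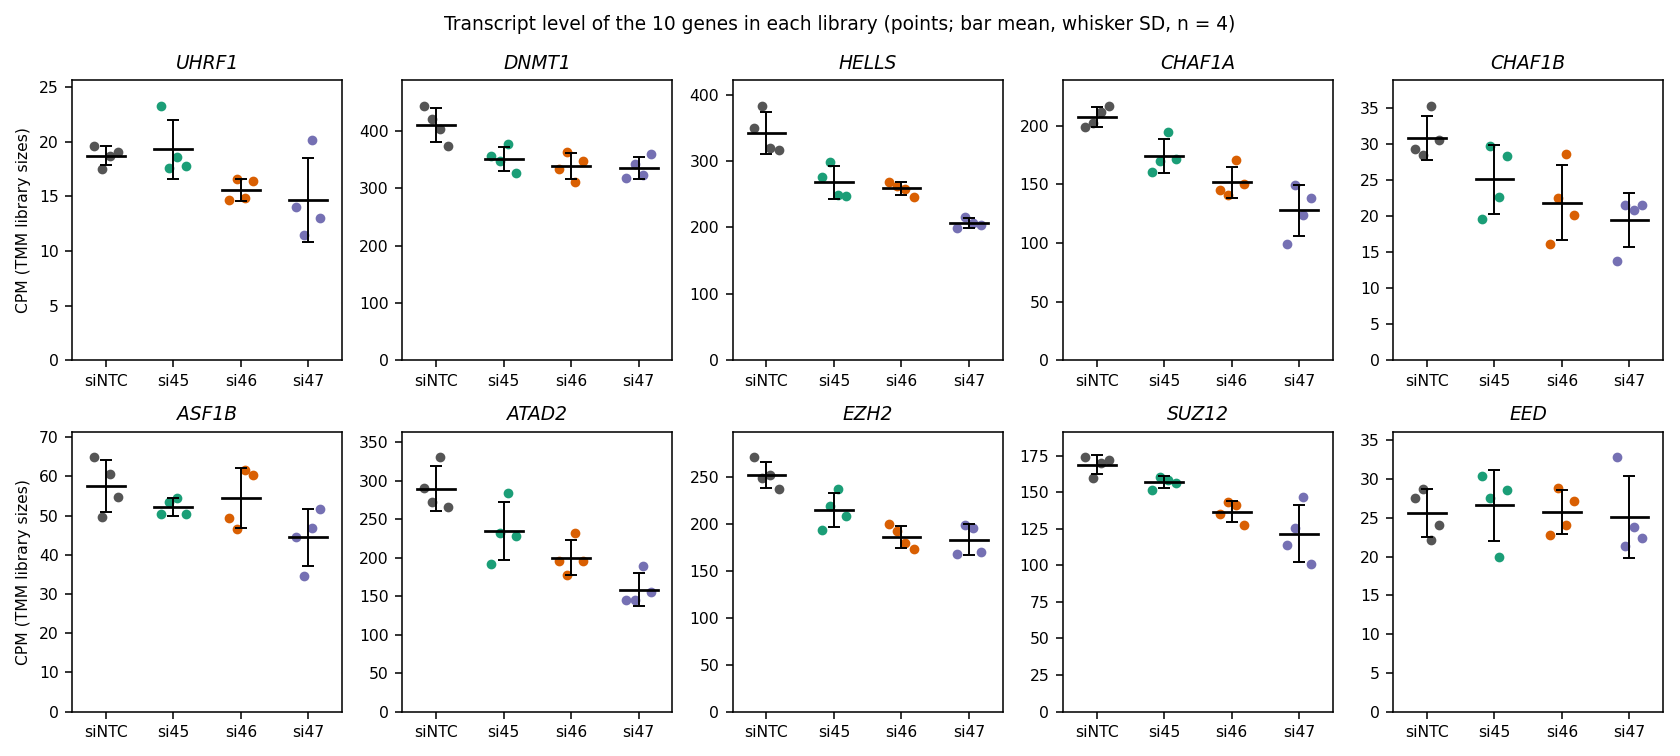
CPM (linear axis from 0) of each of the 10 genes in the 16 libraries, 1 panel a gene and 1 column of points for each siRNA, with the mean ± SD in black. HELLS, EZH2 and CHAF1A show no knockdown library within the siNTC range, whereas the 4 groups of EED lie over each other.

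Within maintenance methylation, HELLS and DNMT1 fell and UHRF1, which guides DNMT1 to the new strand, did not pass with any siRNA. HELLS measured 349.5, 383, 319.6 and 316 CPM in the siNTC libraries, 276.2, 299, 249 and 247 with si45, 269, 263, 259 and 246 with si46 and 199, 216, 207 and 204 with si47. Every knockdown library lay below every control, and the si47 libraries lay below all others. HELLS fell by 0.49 in the mean of the 3 siRNAs on the log2 scale (SE 0.0661, edgeR adjusted p = 4.17e-06), and by 0.35 with si45, 0.40 with si46 and 0.73 with si47 (adjusted p = 0.0181, 0.00328 and 1.95e-07).

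DNMT1 measured 444, 421, 403 and 373 CPM in the siNTC libraries, 357, 347, 377 and 326 with si45, 333, 364, 311 and 347 with si46 and 318, 342, 323 and 360.5 with si47. All but si45 replicate 3 lay under the lowest control, siNTC replicate 4, and the 3 knockdown groups overlapped. DNMT1, the methyltransferase itself, had the highest average CPM of the 10 genes and fell by 0.26 in the mean (SE 0.0650, edgeR adjusted p = 0.00917). By siRNA, its fold changes were -0.22 with si45 (adjusted p = 0.220), -0.28 with si46 (0.0478) and -0.29 with si47 (0.0172). The adjusted p with si46 missed the threshold when any of 12 single libraries was left out, reaching 0.171 without siNTC replicate 1, and that with si47 did so without siNTC replicates 1 or 2 or si47 replicate 1 (0.0734, 0.0521 and 0.0711).

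UHRF1 measured 19.6, 17.5, 18.7 and 19.1 CPM in the siNTC libraries, 23.3, 17.6, 18.6 and 17.8 with si45, 14.7, 16.6, 14.8 and 16.4 with si46 and 14.0, 11.4, 20.2 and 13.0 with si47. UHRF1 had the lowest average CPM of the 10, with 63 to 150 counts in a library. The si45 libraries overlapped the controls, all 4 si46 libraries lay below them, and si47 replicate 3 stood above them while the other 3 lay below. Its fold change in the mean was -0.19 (95% interval -0.47 to 0.09, edgeR adjusted p = 0.490), so a fall as large as that of DNMT1 lies within the interval. With si47 it was -0.35 (adjusted p = 0.227), and -0.54 (0.0465) without si47 replicate 3.

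Chromatin assembly showed the lowest fold change of the 10 genes. ATAD2 measured 289.9, 273, 331 and 265 CPM in the siNTC libraries, 192, 232, 284 and 229 with si45, 196, 178, 232 and 195 with si46 and 145, 144, 189 and 156 with si47. The si47 libraries were lowest on average and overlapped those of si46, si45 replicate 3 lay within the control range, and the other 11 knockdown libraries lay below it. ATAD2, the bromodomain ATPase, fell by 0.57 in the mean (SE 0.0847, edgeR adjusted p = 2.97e-05), by 0.53 with si46 (adjusted p = 0.00264) and by 0.87 with si47 (1.53e-06). With si45 its fold change was -0.31 (adjusted p = 0.198), and -0.41 (0.0214) without si45 replicate 3.

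Both CAF-1 subunits fell in the mean. CHAF1A measured 199, 202, 212 and 217 CPM in the siNTC libraries, 160.2, 170.0, 194 and 171 with si45, 145, 141, 171 and 150.0 with si46 and 99.5, 149.9, 124 and 138 with si47. No knockdown library of CHAF1A, the large subunit that binds PCNA, reached the lowest control, and its si47 libraries overlapped those of si46. It fell by 0.47 in the mean (SE 0.0788, edgeR adjusted p = 0.000131), by 0.45 with si46 (0.00599) and by 0.70 with si47 (9.00e-06), with -0.25 (0.270) under si45. CHAF1B measured 29.3, 28.5, 35.4 and 30.5 CPM in the siNTC libraries, 19.6, 29.8, 22.7 and 28.4 with si45, 16.2, 22.6, 28.6 and 20.1 with si46 and 13.8, 21.6, 20.8 and 21.5 with si47. CHAF1B, the WD-repeat subunit, was low in si47 replicate 1, and 10 of its 12 knockdown libraries lay below all controls. It fell by 0.49 in the mean (SE 0.138, edgeR adjusted p = 0.0235) and by 0.67 with si47 (0.0107). Its fold changes of -0.30 with si45 and -0.50 with si46 did not pass (adjusted p = 0.538 and 0.113). With 88 to 195 counts in a library CHAF1B is measured less precisely than CHAF1A, and its call in the mean was lost without siNTC replicates 1, 3 or 4 (adjusted p = 0.0523, 0.119 and 0.0654) and its call with si47 without si47 replicate 1 (0.0716).

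ASF1B measured 64.9, 49.7, 60.5 and 54.6 CPM in the siNTC libraries, 50.3, 53.5, 54.6 and 50.3 with si45, 49.4, 46.6, 61.6 and 60.4 with si46 and 44.6, 34.5, 46.9 and 51.8 with si47. The si45 and si46 values lay among or near the controls, and 3 of the 4 si47 libraries lay below them. ASF1B, the chaperone that passes histones to CAF-1, had fold changes of -0.14, -0.08 and -0.37 with si45, si46 and si47 (edgeR adjusted p = 0.741, 0.837 and 0.0566). Without siNTC replicate 2 or si47 replicate 4 the si47 value passed (-0.43 and -0.45, adjusted p = 0.0415 and 0.0335). In the mean it was -0.19 (95% interval -0.39 to 0.00, adjusted p = 0.269).

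Of the 3 core subunits of PRC2, EZH2 and SUZ12 fell in the mean and EED did not pass, which by itself shows no difference between them. EZH2 measured 271, 248, 252 and 237.5 CPM in the siNTC libraries, 193, 219, 236.8 and 209 with si45, 199.5, 192, 179 and 173 with si46 and 168, 199, 196 and 170.0 with si47. The highest knockdown library, si45 replicate 3, lay just under the lowest control, siNTC replicate 4. EZH2, the methyltransferase, fell by 0.38 in the mean (SE 0.0690, edgeR adjusted p = 0.000384), by 0.44 with si46 (0.00173) and by 0.46 with si47 (0.000399), with -0.23 (0.232) under si45.

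SUZ12 measured 174, 159.5, 169.6 and 172 CPM in the siNTC libraries, 151, 161, 159 and 156 with si45, 135, 143, 141 and 127 with si46 and 114, 125, 147 and 101 with si47. The control SUZ12 libraries were close together, si45 replicate 2 overlapped them, and si47 spread most, with replicate 4 lowest. SUZ12, the scaffold, fell by 0.29 in the mean (SE 0.0745, edgeR adjusted p = 0.0110) and by 0.47 with si47 (0.000736). Its fold changes were -0.11 with si45 (0.731) and -0.30 with si46 (0.0626), the latter passing without si47 replicates 3 or 4 (0.0320 and 0.0413). SUZ12P1, a pseudogene copy of SUZ12, held 140 to 259 counts in a library on its own row, so the split of reads between them is uncertain.

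EED measured 27.6, 28.8, 22.1 and 24.1 CPM in the siNTC libraries, 30.4, 27.5, 19.9 and 28.6 with si45, 22.8, 28.9, 24.1 and 27.2 with si46 and 32.8, 21.4, 23.9 and 22.4 with si47. The groups overlapped throughout: 2 knockdown libraries lay below all controls and 3 above. EED, the reader of the mark, had a fold change of 0.01 in the mean (95% interval -0.25 to 0.26, edgeR adjusted p = 0.984). EED had 115 to 209 counts in a library. The estimate for SUZ12 (-0.29) lies outside this interval by a narrow margin. That estimate has an error of its own, so this shows no difference between the genes. The ratio of EZH2 to EED was compared library by library, a comparison chosen after the values were seen. It was 9.92 ± 1.13 in siNTC, 8.37 ± 2.43 with si45, 7.30 ± 1.07 with si46 and 7.55 ± 1.78 with si47. On the log2(CPM + 1) scale it was lower by a difference of -0.38 in the 12 knockdown libraries (two-sided exact permutation p = 0.0319, 0.127 after adjustment over the 4 subunit pairs compared). SUZ12 to EED differed by -0.30 (exact permutation p = 0.0714, adjusted 0.143). Neither difference passed, although both did without si45 replicate 3 (exact permutation, adjusted p = 0.0176 and 0.0293). DNMT1 to UHRF1 and CHAF1A to CHAF1B differed by -0.07 and 0.02 (exact permutation, adjusted p = 0.83 and 0.887).

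The 3 siRNAs differed in how many of the genes passed. With si45, 1 of the 10 was lower (HELLS), where 0.324% of all genes tested were lower. With si46 there were 5 (DNMT1, HELLS, ATAD2, EZH2 and CHAF1A), where 1.25% of all genes were lower. With si47 there were 7, SUZ12 and CHAF1B in addition, where 4.83% of all genes were lower. None was higher with any siRNA in edgeR's test, also at an unadjusted p under 0.05, and DESeq2 and limma-voom called 0 higher too. At the adjusted threshold edgeR had 144, 304 and 697 of all 14193 genes higher with si45, si46 and si47. For a set of 10, a count of 0 higher is near those shares. The median log2 fold changes were -0.23, -0.35 and -0.47, against 0.00 over all genes each time. The HELLS call under si45 was lost without siNTC replicates 1 or 2 or si45 replicates 1 or 4 (adjusted p = 0.0645, 0.118, 0.0568 and 0.0852), leaving 0 genes, and without si45 replicate 3 ATAD2 was added to it, giving 2.

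The siRNAs were then tested against each other, since passing with one and not with another shows no difference. Between si47 and si45, 3 of the 10 differed, where 0.169% of all genes tested did. HELLS (-0.38, edgeR adjusted p = 0.0479), ATAD2 (-0.56, 0.0145) and CHAF1A (-0.45, 0.04997) were lower with si47. SUZ12 had -0.37 (0.0775). The si45 and si47 libraries of the same replicate number deviated together, and with the replicate number as a block SUZ12 also passed (-0.37, adjusted p = 0.00469), giving 4. The HELLS and CHAF1A calls are near the threshold, and the count was 0 without si45 replicate 4, si47 replicate 1 or si47 replicate 4. It was 1 without siNTC replicates 1, 3 or 4, si45 replicates 2 or 3, si46 replicates 1 or 4, or si47 replicate 2. By edgeR, 0 of the 10 differed between si46 and si45 (0.0282% of all genes did) and 0 between si47 and si46 (0.0493%). At an unadjusted p under 0.05, edgeR had 3 and 4 of the 10 lower in these comparisons. Over the 14193 genes tested, in either direction, an unadjusted edgeR p of 0.0427 ranked 493 and 1 of 0.0555 ranked 653 for si46 against si45. For si47 against si46, an unadjusted edgeR p of 0.0501 ranked 1039. DESeq2 called 0 and 1 (HELLS) of the 10, and limma-voom 0 and 0. The fold changes were lowest with si47, then si46, then si45 in 9 of the 10 genes, all but ASF1B, and in 20.3% of all genes tested. Some of these steps were near 0: for si47 against si46, DNMT1 had -0.01, EZH2 -0.02 and EED -0.03. The signs of these 3 turned when some single libraries were left out. TPX2 itself stood at 27.98%, 24.9% and 21.8% of its control mean with si45, si46 and si47.

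**Figure D2:**
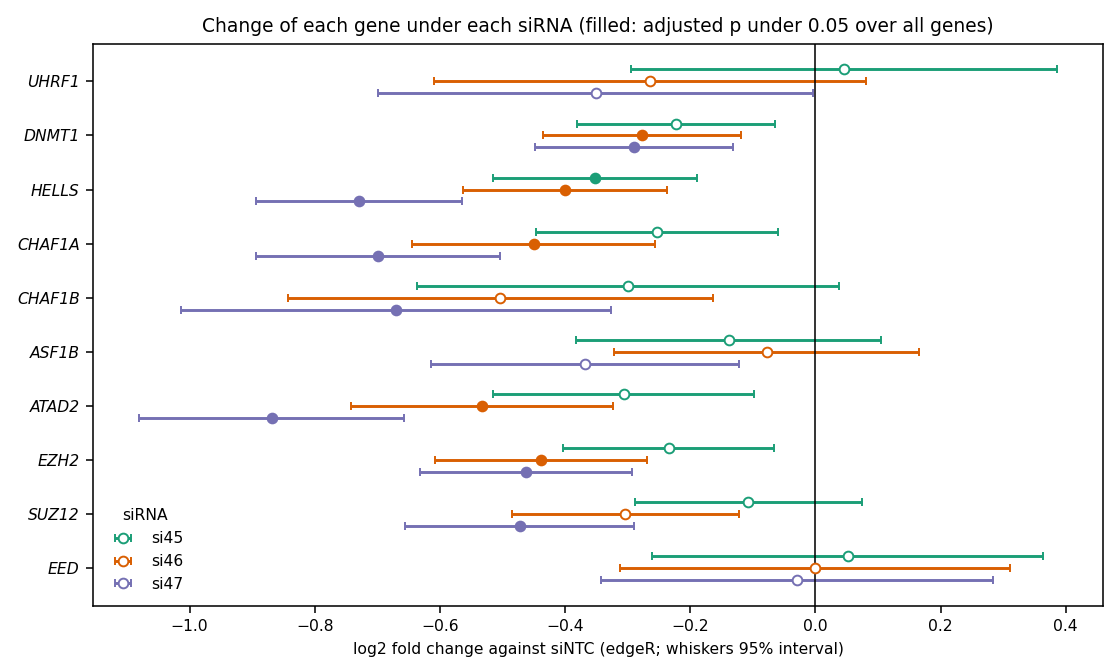
Log2 fold change of each of the 10 genes against siNTC with si45, si46 and si47 by edgeR (x axis, 4 libraries a group), with the 95% interval as whiskers and filled points where the adjusted p was under 0.05. The points of HELLS, CHAF1A and ATAD2 lie farther left of 0 with si47 than with si45, and the intervals of EED span 0 with all 3 siRNAs.

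Each of 4 genes has a close paralog that is not among the 10, and the pair was compared within each library. EZH1, the other PRC2 methyltransferase, had 63.3, 68.0, 68.6 and 64.5 CPM in siNTC, si45, si46 and si47, with a fold change of 0.08 in the mean (edgeR adjusted p = 0.706). The ratio of EZH2 to EZH1 was 4.03 ± 0.590 in siNTC, 3.16 ± 0.164 with si45, 2.71 ± 0.0882 with si46 and 2.93 ± 0.558 with si47. Only si47 replicate 4, at 3.49, exceeded the lowest control, 3.40 in siNTC replicate 4. The log2 ratio fell by 0.45 in the knockdown libraries (two-sided exact permutation p = 0.00220, 0.00879 adjusted over the 4 paralog pairs; the 1820 regroupings allow none below 0.00110).

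ATAD2B, the paralog of ATAD2, had 52.3, 49.1, 51.1 and 52.6 CPM in the same order. The ATAD2 to ATAD2B ratio was 5.68 ± 1.11 in siNTC, 4.86 ± 1.26 with si45, 4.01 ± 0.891 with si46 and 3.07 ± 0.714 with si47, and 8 of 12 knockdown libraries lay below all controls. Its log2 ratio fell by 0.54 (two-sided exact permutation p = 0.0242, adjusted 0.0484), a call near the threshold that was lost when any of 12 single libraries was left out (adjusted p up to 0.167, without siNTC replicate 4). UHRF2 (27.9, 24.1, 25.8 and 24.4 CPM) and ASF1A (23.4, 17.3, 18.2 and 19.9 CPM) had fold changes of -0.17 and -0.34 in the mean that did not pass (edgeR adjusted p = 0.50 and 0.215). The UHRF1 to UHRF2 and ASF1B to ASF1A log2 ratios differed by -0.02 and 0.16 (exact permutation, adjusted p = 0.905 and 0.690). At about 20 CPM, UHRF1, UHRF2 and ASF1A rest on few counts, whereas ASF1B stood higher.

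**Figure D3:**
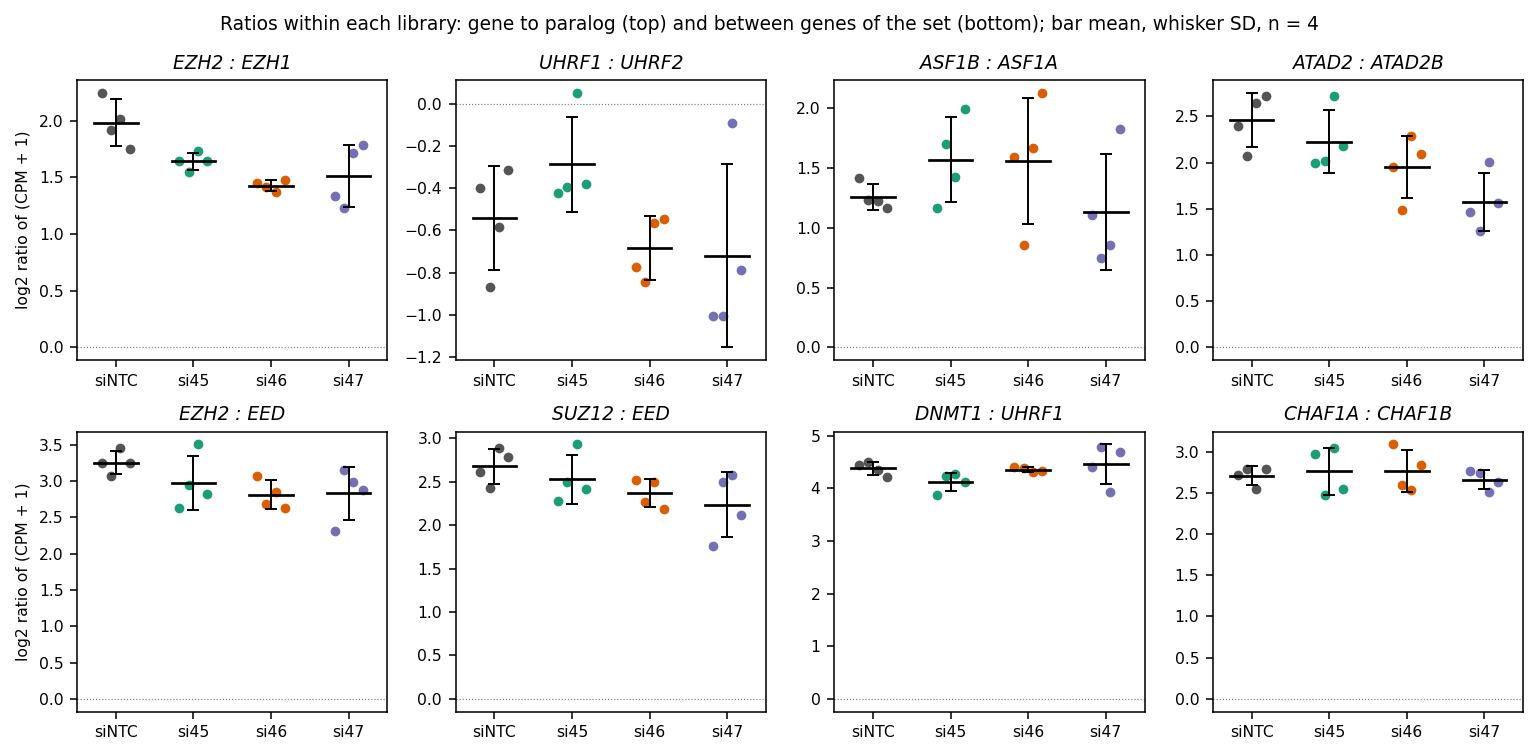
Log2 ratio of (CPM + 1) within each library, 1 point a library by siRNA with mean and SD (n = 4), for the 4 paralog pairs (top) and 4 pairs within the set (bottom); axes differ between panels. EZH2 to EZH1 is below the siNTC range in 11 of the 12 knockdown libraries, and the UHRF1 to UHRF2 and CHAF1A to CHAF1B points overlap the controls.

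The other genes of each process were taken from lists, counted in the mean of the 3 siRNAs by edgeR with adjustment over all genes, beside 3.53% lower and 3.61% higher over all genes. Of 19 partners of maintenance methylation 1 fell, with a median of -0.11. It was CDCA7, the partner of HELLS (-0.32, adjusted p = 0.0148). The ligase LIG1 (-0.35, 0.0541) and USP7 (-0.19, 0.0766), the deubiquitinase bound to DNMT1 and UHRF1, did not pass. Of 27 other histone chaperones and assembly factors 5 fell, with a median of -0.14. These were HJURP, the chaperone of the centromeric histone (-0.63, adjusted p = 4.17e-06), MMS22L of the TONSL complex (-0.44, 0.00380), NASP, which guards soluble H3 and H4 (-0.40, 0.000123), and both FACT subunits, SSRP1 (-0.26, 0.0123) and SUPT16H (-0.20, 0.0334).

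Of 13 tested PRC2 partners (of 14 listed) 1 fell and 1 rose, with a median of -0.03. PHF19, an accessory subunit that recruits PRC2, fell by 0.44 (adjusted p = 0.00684), and KDM6B, a demethylase that removes the PRC2 mark, rose by 0.50 (0.00436). RBBP4, shared by PRC2 and CAF-1, had -0.17 (0.11). Over 20 genes of PRC1, the other Polycomb complex, the median was 0.04. Its subunits RYBP (0.20, edgeR adjusted p = 0.0723) and PCGF2 (-0.22, 0.137) did not pass.

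Cell cycle genes moved in the same libraries. Of 39 other S phase genes 24 fell in the mean, with a median of -0.36, among them MCM4 of the replicative helicase (-0.47, edgeR adjusted p = 4.88e-05), NASP and CLSPN, the checkpoint adaptor claspin (-0.46, 0.000371). Of 53 G2M genes 28 fell, with a median of -0.27, among them HJURP, the proliferation marker MKI67 (-0.50, 7.80e-06) and CDCA2 (-0.59, 8.27e-06). Lists share genes: PCNA and CDCA7 stand in both the methylation and the S phase list, NASP and MCM2 in both the assembly and the S phase list, RBBP4 and RBBP7 in the assembly and PRC2 lists, and HJURP in the assembly and G2M lists. By siRNA, the S phase list had 0, 12 and 28 genes lower with si45, si46 and si47, and the G2M list 5, 15 and 27. Over all genes tested, 0.324%, 1.25% and 4.83% were lower. With si45, 18 of the 39 S phase genes were lower at an unadjusted p under 0.05. The share of all genes at that threshold was not counted. The mean log2 difference from siNTC over the 10 genes ran from -0.23 to -0.14 in the si45 libraries, -0.40 to -0.26 with si46 and -0.59 to -0.38 with si47, and that over the S phase genes from -0.26 to -0.12, -0.35 to -0.24 and -0.62 to -0.32. The part of the S phase and G2M genes' fall in the result for the 10 genes was not tested.

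**Figure D4:**
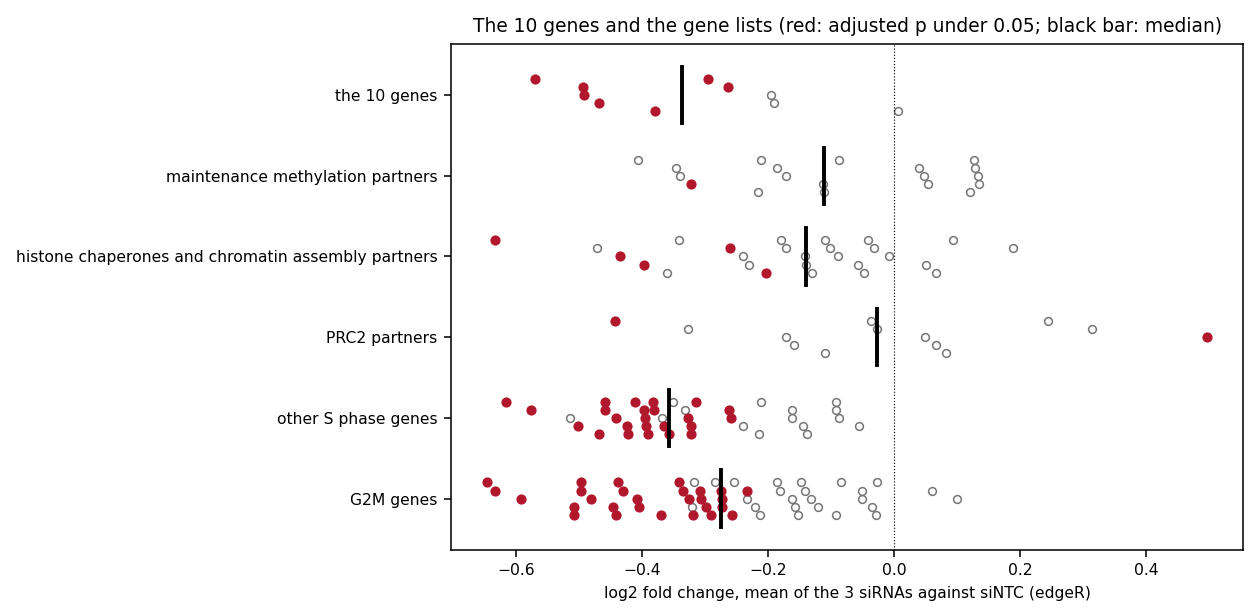
Log2 fold change in the mean of the 3 siRNAs against siNTC (x axis, edgeR) of the 10 genes and of each tested gene in 5 lists, 1 point a gene, red where the adjusted p was under 0.05, with the median as a black bar. The medians of the 10 genes (-0.34), the S phase genes (-0.36) and the G2M genes (-0.27) lie left of that of the PRC2 partners (-0.03).

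Over the 16 libraries the genes followed each other to different degrees, given here as a description because the libraries share the siRNA groups. The log2 CPM of each gene was correlated with the mean of the other 9. Pearson's r was highest for ATAD2 (0.906), HELLS (0.880), SUZ12 (0.862), CHAF1A (0.83) and EZH2 (0.826), lower for CHAF1B (0.721), DNMT1 (0.679), UHRF1 (0.629) and ASF1B (0.561), and -0.0607 for EED. Among 11796 other genes with a mean count of at least 20, those most like the mean of the 10 were CDT1 (r = 0.938), which loads the replicative helicase, CENPU (0.930) of the centromere, RBL1 (0.929), the pocket protein that binds E2F factors, E2F1 (0.917) and MCM4 (0.917).

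On GRCh38 (GENCODE v29), 4 of the 10 genes lie on chromosome 19: CHAF1A (ENSG00000167670, 4402662 to 4445018, plus strand), UHRF1 (ENSG00000276043, 4903080 to 4962154, plus), DNMT1 (ENSG00000130816, 10133345 to 10231286, minus) and ASF1B (ENSG00000105011, 14119509 to 14136956, minus). EZH2 (ENSG00000106462) spans 148807383 to 148884321 on the minus strand of chromosome 7 and HELLS (ENSG00000119969) 94501434 to 94613905 on the plus strand of chromosome 10. EED (ENSG00000074266) spans 86244544 to 86278813 of chromosome 11, SUZ12 (ENSG00000178691) 31937018 to 32001045 of chromosome 17 and CHAF1B (ENSG00000159259) 36385378 to 36419015 of chromosome 21, all on the plus strand. ATAD2 (ENSG00000156802) lies on the minus strand of chromosome 8, from 123319850 to 123416350. Near their 3' ends, where these reads fall, CHAF1A overlaps UBXN6 and ASF1B overlaps AC022098.3 on the opposite strand, and HELLS overlaps AL138759.1 and EED the microRNA gene MIR6755 on the same strand. Whether the counting used strand is not given in the sources used here, so reads of these pairs may not be told apart.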

How the data were processed

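RNA of 16 libraries was measured, 4 each for siNTC, si45, si46 and si47, grouped by the siRNA in the labels, with table columns matched by siRNA and replicate number. The authors deposited raw read counts per Ensembl gene, whole numbers that were not normalized. The submitters' processing notes name FastQC 0.11.7, STAR 2.7.2b, edgeR 3.36.0, limma 3.50.3 and GRCh38. The counter, the annotation and the use of strand are not given in the sources used here. If PCR duplicates were kept, they add to the spread between libraries. Mitochondrially encoded genes were not analysed here.

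The test was the quasi-likelihood F test of edgeR 4.0.16 (R 4.3.3), fitted robustly with 1 mean for each of the 4 groups after filterByExpr (minimum count 10, minimum total 15) and TMM, with Benjamini-Hochberg adjustment over all 14193 genes within each contrast and a threshold of 0.05. The standard error is the size of the log2 fold change divided by the square root of F, and 95% intervals use a normal multiplier. Ratios of CPM + 1 were compared by two-sided exact permutation. The steps were tested on simulated data. Over the 24 pairs of libraries within a group, a chi-square per degree of freedom of 4.36 to 9.80 showed no library deposited more than once in its group. Pairs from different groups were not examined in this way. Deviations of same-numbered si45 and si47 libraries correlated (r = 0.12 to 0.242 over 4 pairs, all over 0.1), and not all pairs of any other 2 groups did; this pairing comes from the values. Symbols matched 58434 identifiers.

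Also tried were DESeq2 1.42.0, limma-voom (limma 3.58.1), scaling by RLE or upper quartiles, other low-count filters, only the groups compared, a replicate block, a threshold of 0.01, other pseudocounts and leaving out each library. The text names all 10 genes, 4 paralogs, TPX2, the 3 genes of each list lowest in p for the mean of the siRNAs, other list genes that passed, and the 5 genes most like the 10. An item that the rule covered is not reported here. The members and lists were chosen with earlier results of these data known.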

Additional observations from a re-analysis of the deposited data

Results flagged for a closer look

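In 3 groups 1 library stood far from its other 3, with a gap to the nearest that took more of the group's whole range than in about 1 of 20 groups of 4 by chance. TPX2 was at 121 CPM in si45 replicate 3 against 79.4 to 85.1 in the other si45 libraries, the highest residual level of the targeted gene. That library also held the highest CPM of CHAF1A, ATAD2, EZH2 and DNMT1 among the 12 knockdown libraries. UHRF1 was at 23.3 CPM in si45 replicate 1 against 17.6 to 18.6 in the others, and CHAF1B at 13.8 CPM in si47 replicate 1 against 20.8 to 21.6. Over the 64 groups examined chance alone gives about 3.2 such libraries, and 3 were seen.

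Between siRNAs against the same target, 3 of the 10 genes differed by edgeR's direct test of si47 against si45: HELLS by -0.38, ATAD2 by -0.56 and CHAF1A by -0.45 on the log2 scale, with adjusted p-values of 0.0479, 0.0145 and 0.04997. TPX2 was reduced to 21.8% of control with si47 and to 27.98% with si45, where the mean includes the flagged replicate 3 at 121 CPM. Whether these differences go with residual TPX2 was not tested.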

How the results depend on the processing

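Of 2066 values recomputed under the alternatives, 1883 were classed as the same. Fold changes and ratios were so classed when they kept their direction and their side of the threshold, also where they passed neither time. Counts of genes were so classed when they stayed within a set margin of the main count. In the mean of the 3 siRNAs, HELLS, ATAD2, EZH2 and CHAF1A passed under every alternative run. The count of genes lower in the mean ran from 4 to 7 as single libraries were left out, and that with si45 from 0 to 2; only the groups compared gave 0 with si45, a replicate block 2 and the threshold of 0.01 gave 0. The count differing between si47 and si45 ran from 0 to 4 without single libraries and was 1 with upper-quartile factors, 1 with only the groups compared and 0 at 0.01. Between si47 and si46 it was 1 with DESeq2 (HELLS) and 2 with the replicate block (HELLS and ATAD2), and 0 without each single library. The ATAD2 to ATAD2B log2 difference was -0.55 with a pseudocount of 0.5 (exact permutation, adjusted p = 0.0505) and -0.67 to -0.46 without single libraries, and CHAF1A to CHAF1B was -0.0386 with a pseudocount of 5 and -0.0368 to 0.0442 without single libraries. UHRF1 to UHRF2 ran from -0.13 to 0.0548.

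Log2 changes near 0 turned sign. EED with si46 was 0.0030 with upper-quartile factors, 0.0068 with at least 10 counts in every library, 0.0023 with only the groups compared and 0.0051 with the replicate block, and its mean was -0.0072 with limma-voom. Without single libraries EED ran from -0.012 to 0.17 (si45), -0.065 to 0.062 (si46), -0.18 to 0.038 (si47), -0.057 to 0.071 (mean), -0.17 to 0.0147 (si46 against si45) and -0.19 to 0.040 (si47 against si46). UHRF1 ran from -0.049 to 0.096 with si45 and from -0.28 to 0.0136 for si47 against si46, HELLS from -0.082 to 0.0059 and ASF1B from -0.0088 to 0.13 for si46 against si45, and DNMT1 from -0.048 to 0.024 and EZH2 from -0.065 to 0.016 for si47 against si46. The causes were not tested.

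The labels do not say whether same-numbered libraries share a culture or day; in the group pairs other than si45 with si47 their deviations correlated at 0.0188 to 0.247, not over 0.1 in every pair of libraries. The replicate block raised the count of all genes lower from 46 to 243 with si45, 178 to 487 with si46, 685 to 1130 with si47 and 501 to 929 in the mean. For si47 against si45 it gave 212 lower and 186 higher in place of 14 and 10, DESeq2 98 and 55, and no low-count filter 88 and 78. Under the block ATAD2 passed with si45, SUZ12 and CHAF1B with si46 and ASF1B with si47 (adjusted p = 0.00497, 0.00981, 0.0194 and 0.0128). Only the groups compared has no separate value for the mean, which uses all 16 libraries. Depth limits UHRF1, EED and CHAF1B most, at 63 to 209 counts in a library.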
